A study of Mus musculus with 4 samples.

Results

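The genes described are 5 proteins of the small ribosomal subunit, Rps3, Rps3a1, Rps6, Rps9 and Rps24, taken by name from a ribosome profiling table of 4878 genes. Ribosome profiling sequences the mRNA fragments that ribosomes protect from RNase, called footprints, and the table gives each gene's reads on its leader (the 5' untranslated region) and on its coding sequence. The cells were mouse embryonic fibroblasts at passages 5 to 8, with no strain or genotype given. In 2 control libraries the cells had received a negative control siRNA, and in 2 knockdown libraries an siRNA against the initiation factor eIF1A, labelled Si-eIF1A (X+18), both by Lipofectamine RNAiMAX. The series title names impaired binding of eIF1A mutants to Rps3 and Rps10, so the comparison asks what happened to the footprints of small-subunit proteins when eIF1A was targeted.

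The small subunit carries initiation factors along the leader of an mRNA until the start codon is found, and eIF1A binds it near the decoding site. Rps3 lies at the opening where mRNA enters the subunit, next to Rps9, and Rps3a1 lies nearer to where the mRNA leaves. Rps6 is the ribosomal protein that S6 kinases phosphorylate downstream of mTOR, and Rps24 is needed to mature the RNA of the subunit. The mRNAs of ribosomal proteins begin with a terminal oligopyrimidine tract, a run of C and T at the cap through which mTOR and Larp1 control their translation.

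Sequence around the annotated starts of these mRNAs is shown because that tract is their best-known control element, and a run found here need not be that tract. The longest run of C and T was searched on the mRNA strand within 50 bases either side of each RefSeq start (GRCm38.p6), and where a gene has several starts the one with the longest run is shown, and each line gives 30 bases around it, 5' to 3', with the run in capitals.
Rps3: tcaTTTCCCatgcaaaacttcatttcccat
Rps3a1: acgtagacggcgCTCCCCgcccggctcgcg
Rps6: ggaagtcgggCCTCTTTTTCgtgacgcctc
Rps9: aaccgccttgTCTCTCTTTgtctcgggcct
Rps24: agcggTCCTCTTTTCCTCCTCTCCagctcc
The stretch of Rps6 lies on the minus strand at chr4:86857349-86857378 and that of Rps9 on the plus strand at chr7:3704025-3704054, beside a start downstream of the gene's first. The stretch of Rps24 lies on the plus strand at chr14:24490711-24490740, beside the downstream of 2 RefSeq starts. The stretch of Rps3 lies on the minus strand at chr7:99483730-99483759 and that of Rps3a1 on the minus strand at chr3:86142623-86142652. The run of Rps6 is 10 bases long and begins 1 base before the start, and 18.1% of 32851 start windows held a run as long. The run of Rps9 has 9 bases (25.3% of windows) and begins at -6 from its start. The run of Rps24 has 19 bases (1.28%) but begins at -37 from the start it is shown beside, and in the window of the gene's first start it begins at 39 and is cut to 12 bases (9.17%). For Rps3 and Rps3a1 the longest run was 6 bases, which 68.1% of windows reached. Of runs equally long only the first was marked, beginning at -47 and 29 from the start. The stretch of Rps3 holds another run of 6 bases, left in lower case. A RefSeq start need not be the cap site of these cells, so a short run here says only that these letters are not in this window.

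All 4 libraries were of unequal depth, with 617663 and 547916 reads on listed genes for the controls (replicates 1 and 2) and 458191 and 280649 for the knockdown. Leaders held 11.6% and 13.7% of these reads in the controls and 19.95% and 32.4% after knockdown. Each value was a whole multiple of the value of 1 read, and no value was below 1 read, so a listed value of 1 may stand for 0 or 1 read. Of 16 fibroblast markers, 6 were in the table (Col5a1, Col6a1, Vim, S100a4, Fn1 and Sparc), of which Col6a1, S100a4 and Col5a1 fell in coding footprints (log2 -3.66, -2.92 and -2.11) and 0 rose. No endothelial, leukocyte or erythroid marker was among the listed genes, the epithelial marker Dsp did not pass, and the pericyte markers Notch3 and Cspg4 and the neuronal marker Map2 fell. The part of cell makeup in the results was not tested, and in bulk libraries fewer cells of a type cannot be told apart from less RNA per cell. The targeted Eif1ax, its copy Eif1a and the Rps10 of the title were not analysed here, and the depletion itself was therefore not checked.

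Coding footprints of all 5 proteins rose in the knockdown libraries, from 3.71-fold (Rps3) to 5.60-fold (Rps6) by limma. Together the 5 coding regions held 0.139% and 0.127% of the coding reads of all listed genes in the controls (replicates 1 and 2) and 0.760% and 0.646% after knockdown, a quantity that does not depend on the normalization. Their mean share was 0.133% ± 0.00856 (SD, n = 2) in the controls and 0.703% ± 0.0808 after knockdown, 5.30 times as much. By limma, 5 of 5 passed as higher, where 10.6% of all 4619 genes tested did, and both knockdown libraries lay above both controls for 5 of 5, where 26.0% of genes tested did. RNA-seq was not used here, so more footprints cannot be told apart from more mRNA.

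Rps3, the protein that the series title names, had 108.9 and 89.0 normalized coding reads in the controls (replicates 1 and 2) and 487 and 278 after knockdown, from 152, 103, 479 and 174 whole reads. The knockdown libraries were both above both controls, and knockdown replicate 1 was the higher. The log2 change was 1.89 ± 0.32 (SE), with a 95% interval from 1.22 to 2.56 (limma adjusted p = 0.000595). The gene lies on chromosome 7, 99477896 to 99483709 (GRCm38.p6).

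Rps9, its neighbour at the mRNA entry, had 111.8 and 95.1 normalized coding reads in the controls and 487 and 463 after knockdown. Here the knockdown libraries lay close together, at 475 ± 17.2 (SD, n = 2) on average. The log2 change was 2.19 ± 0.28 (SE, limma adjusted p = 8.53e-05), from a gene on chromosome 7, 3703954 to 3706897.

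Rps3a1, near the mRNA exit, had 142 and 143 normalized coding reads in the controls and 808 and 480 after knockdown. The controls were almost equal, and the spread lay in the knockdown libraries (644 ± 231, SD, n = 2). The log2 change was 2.12 ± 0.31 (SE, limma adjusted p = 0.000223), from a gene on chromosome 3, 86137940 to 86142668.

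Rps6, the S6 kinase substrate, had 79.5 and 67.4 normalized coding reads in the controls and 515 and 334 after knockdown. It changed most of the 5, by 2.48 ± 0.30 on the log2 scale (SE, limma adjusted p = 5.68e-05), with an interval from 1.84 to 3.13 that overlaps that of Rps3. Its rank among the changes of all 4619 genes was 26 from the top, and Rps3, the smallest of the 5, stood at 91. The gene lies on chromosome 4, 86854099 to 86857367.

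Rps24 had 101.0 and 124 normalized coding reads in the controls and 539 and 401 after knockdown. Control replicate 2 was the higher control, and both knockdown libraries were above both. The log2 change was 2.05 ± 0.29 (SE, limma adjusted p = 0.0002), from a gene on chromosome 14, 24490678 to 24496960.

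**Figure D1:**
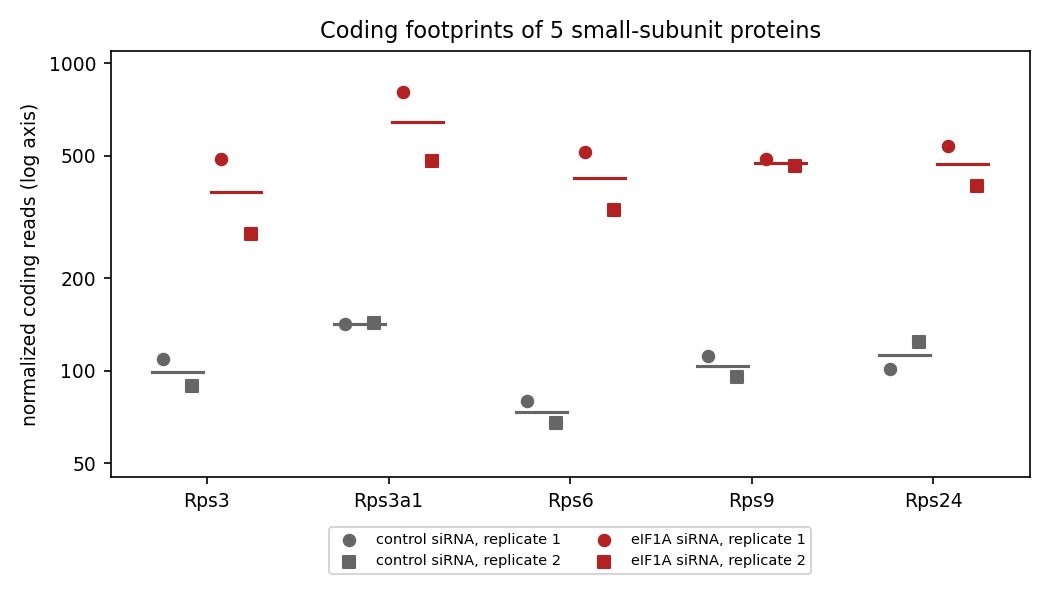
Normalized coding reads (log axis) of the 5 proteins in each library, grey for control siRNA and red for eIF1A siRNA, with circles for replicate 1, squares for replicate 2 and lines at the means of 2 libraries. Every red point lies above every grey point of its gene, and Rps3 goes from 109 and 89.0 to 487 and 278.

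The deposited scaling put the median gene at a log2 change of -0.16, and against that median the 5 changes were 2.05 (Rps3), 2.20 (Rps24), 2.28 (Rps3a1), 2.35 (Rps9) and 2.64 (Rps6). With TMM factors the median gene was at 0.01, and the direction of the 5 was upward under each scaling tried. Over all genes 488 were called higher and 864 lower, a split that moved to 789 and 776 with TMM factors and 695 and 694 with quantile normalization. With control replicate 2 left out, Rps9 and Rps24 kept their calls (limma adjusted p = 0.0469 and 0.0491), while Rps3, Rps3a1 and Rps6 missed the threshold (0.0915, 0.0586 and 0.0502). Their log2 changes there were 1.75, 2.13 and 2.37.

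As a ratio to Rps3 within each library, which removes the scaling, Rps6 had 0.730 and 0.757 coding reads per Rps3 read in the controls and 1.06 and 1.20 after knockdown. Both knockdown values were above both controls, and the same held for Rps3a1, at 1.30 and 1.60 against 1.66 and 1.73. How many of all genes had ratios to Rps3 separated in this way was not counted. For Rps9 the ratios were 1.03 and 1.07 against 1.00 and 1.67, and for Rps24 0.928 and 1.39 against 1.11 and 1.44, so the groups overlapped. The ratios do not compare levels between genes, since coding lengths differ and were not used, and 2 libraries against 2 cannot give an exact two-sided permutation p below 0.333.

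Leader footprints did not move as 1 group. The leader of Rps3 stayed at the lowest value of 1 read in all 4 libraries, while those of Rps3a1, Rps6 and Rps9 had more reads in both knockdown libraries than in both controls, and that of Rps24 overlapped between the groups. Only Rps9 and Rps24 had the mean of 10 normalized leader reads over all 4 libraries needed for the fit. Both were below 10 in the controls (1.58 and 6.61) and passed this filter through the knockdown libraries (36.9 and 15.5). A leader this low in the controls is tested only if it is higher after knockdown. By limma 1 of these 2 passed as higher, where 44.0% of 2101 genes tested did. Both knockdown libraries lay above both controls for 67.4% of those genes, and the median gene's log2 change was 1.09. Rps3, Rps3a1 and Rps6 were too low to enter that set, and the share separated among all 4878 leaders was not counted. Higher leader footprints were thus common among the leaders tested. With quantile normalization 452 leaders were called higher and 375 lower, against 924 and 59 here. Without the filter, 1247 of 4878 leaders were called higher and 62 lower, and the median was 0.67.

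For Rps3, 1 leader read stood beside 152 and 103 coding reads in the controls and beside 479 and 174 after knockdown. In knockdown replicate 1 that is 0.208% of its reads (exact 95% interval 0.00527% to 1.16%), and in control replicate 1 it is 0.654% (0.0165% to 3.59%). Such intervals cover counting error only. No difference in its leader was detectable at this depth, and with 2 listed reads per group no fold is given. A leader at 1 read in every library was found for 859 of the 4878 genes (17.6%), and for 25 of the 273 genes that had a mean of normalized coding reads as high as Rps3 or higher (9.16%).

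Rps3a1 had 1 leader read in each control and 4 and 8 in knockdown replicates 1 and 2. With the reads of each group pooled and scaled by the depth that the deposited normalization gives its libraries, the leader was 9.51 times higher after knockdown, with a 95% counting interval from 2.12 to 87.5. If 1 read was added to every value, the controls held 0 reads and the knockdown libraries 10, and the lower 95% counting limit of the ratio was 3.55.

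Rps6 had 2 and 1 leader reads in the controls and 16 and 4 after knockdown, with replicate 1 the higher. The ratio of pooled, depth-scaled leader reads was 10.6 (counting interval 3.14 to 55.6), or 28.5 (4.51 to 1189) with 1 read less per value. The leaders of Rps3a1 and Rps6 had means of 4.60 and 6.24 normalized reads, below the level needed for the fit. Without a filter on low values, limma gave 2.22 and 2.41 on the log2 scale (adjusted p = 0.00603 and 0.00881), where the median gene was at 0.67. Rps3 had 0.36 (adjusted p = 0.301), which is not a measured change. With 1 read in every library it follows from the value of 1 read alone (0.717 and 0.864 in the controls, 1.02 and 1.60 after knockdown). All 859 leaders at 1 read in every library get that same value, and they are part of that median.

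Rps9 had 2 leader reads in each control and 13 and 38 in knockdown replicates 1 and 2, which are 1.43, 1.73, 13.2 and 60.7 normalized reads. The knockdown libraries were far apart, at 36.9 ± 33.5 (SD, n = 2), and replicate 2 was the higher. The log2 change was 3.52 ± 0.70 (SE, limma adjusted p = 9.17e-06), or 2.43 above the median gene. This fit gave every gene the variance of the trend, so the p does not reflect the gene's own spread.

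Rps24 had 10 and 7 leader reads in the controls and 7 and 15 after knockdown. In normalized reads these are 7.17 and 6.05 against 7.12 and 23.9, so knockdown replicate 1 lay between the controls. The log2 change of 0.91 ± 0.65 (SE) did not pass (limma adjusted p = 0.238, interval -0.36 to 2.18), and relative to the median gene it was -0.18. With quantile normalization it was -0.063, and without knockdown replicate 1 it was 1.72 and passed (adjusted p = 0.0130).

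**Figure D2:**
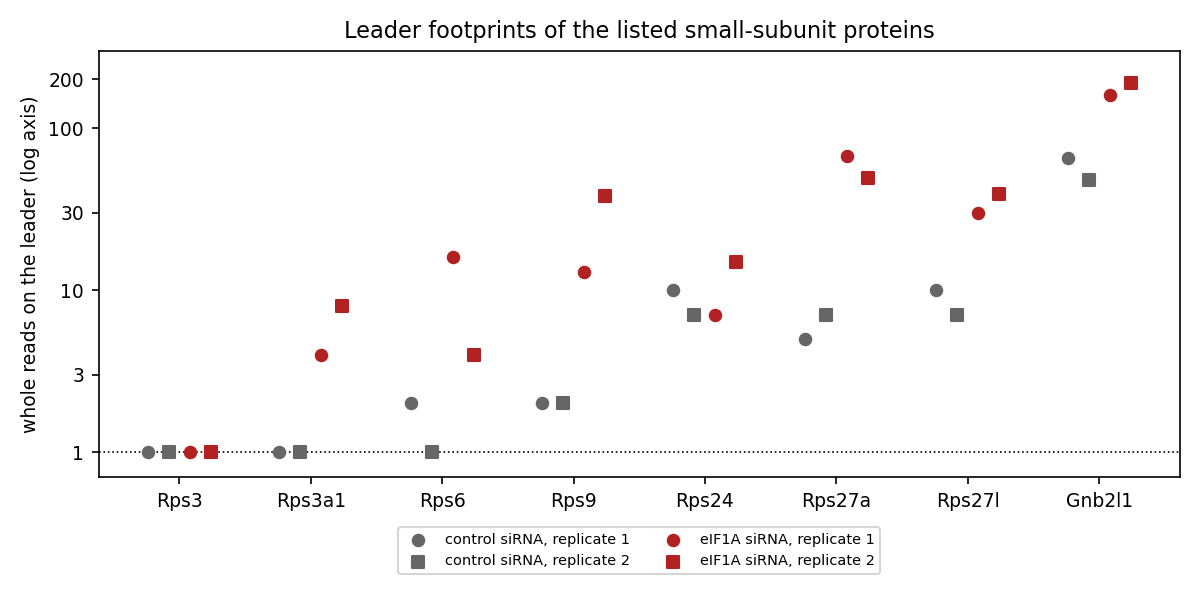
Whole reads on the leader (log axis) of the 8 listed small-subunit proteins in each library, grey for control siRNA and red for eIF1A siRNA, circles for replicate 1 and squares for replicate 2, with a dotted line at 1 read, the lowest listed value. Rps3 lies on that line in all 4 libraries, and Rps9 goes from 2 and 2 reads to 13 and 38.

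The share of reads on the leader sets leader reads against coding reads within a library. For the 5 proteins together it was 2.07% and 1.96% in control replicates 1 and 2, 1.45% in knockdown replicate 1 and 5.11% in knockdown replicate 2 (exact 95% intervals 1.19% to 3.34%, 1.02% to 3.41%, 1.04% to 1.96% and 3.98% to 6.46%). These intervals cover counting error only, and single genes weigh heavily in the pooled share. Rps9 gave 38 of the 66 leader reads in knockdown replicate 2, and Rps24 gave 10 of 16 and 7 of 12 in the controls. Knockdown replicate 1 was below the controls and knockdown replicate 2 above them, while the share over all listed genes was higher than in the controls in both. The share of Rps9 was 1.27% and 1.79% in the controls and 2.64% and 11.6% after knockdown. That of Rps24 was 6.62% and 4.67% against 1.30% and 5.64%, and that of Rps3a1 0.503% and 0.602% against 0.501% and 2.59%. Rps6 had 1.77% and 1.27% against 3.07% and 1.88%, so Rps6 and Rps9 were the members with both knockdown shares above both controls. For Rps6 this rests on 1.88% in knockdown replicate 2, from 4 leader reads, against 1.77% in control replicate 1, from 2. Their exact 95% intervals overlap widely (0.514% to 4.74% and 0.215% to 6.25%). The leader to coding ratio had both knockdown libraries above both controls for 63.9% of 1907 genes tested, a set that Rps6 was too low to enter. That ratio has 1 added to each normalized value, which matters for low leaders, so it is not the same measure as these shares.

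Of the members, 2 had enough reads for the test of the leader to coding ratio and 0 passed it, where 20.5% of 1907 genes passed as higher. Of those genes 391 were called higher and 1 lower, or 48 and 25 with quantile normalization, and both knockdown libraries were above both controls for 63.9%. Without the filter 429 of 4878 genes were called higher and 3 lower. This fit too gave every gene the variance of the trend. The ratio of Rps9 changed by 1.33 ± 0.76 on the log2 scale without passing (SE; limma adjusted p = 0.181, interval -0.16 to 2.82), close to the 1.23 of the median gene. The ratio of Rps24 had -1.14 ± 0.76 (adjusted p = 0.249, interval -2.62 to 0.34), which is -2.37 relative to the median gene and rank 1888 of 1907 from the top. Without knockdown replicate 1 the ratio of Rps9 passed at 2.42 (adjusted p = 0.000784), and that of Rps24 was -0.12. With quantile normalization the ratio of Rps24 passed as lower, at -2.44 (adjusted p = 0.0287). Without a filter, the ratios of Rps3, Rps3a1 and Rps6 had log2 changes of -1.54, 0.10 and -0.08 (adjusted p = 0.161, 0.937 and 0.945), against a median gene of 0.99, and that of Rps3 is set by a leader at the lowest value.

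**Figure D3:**
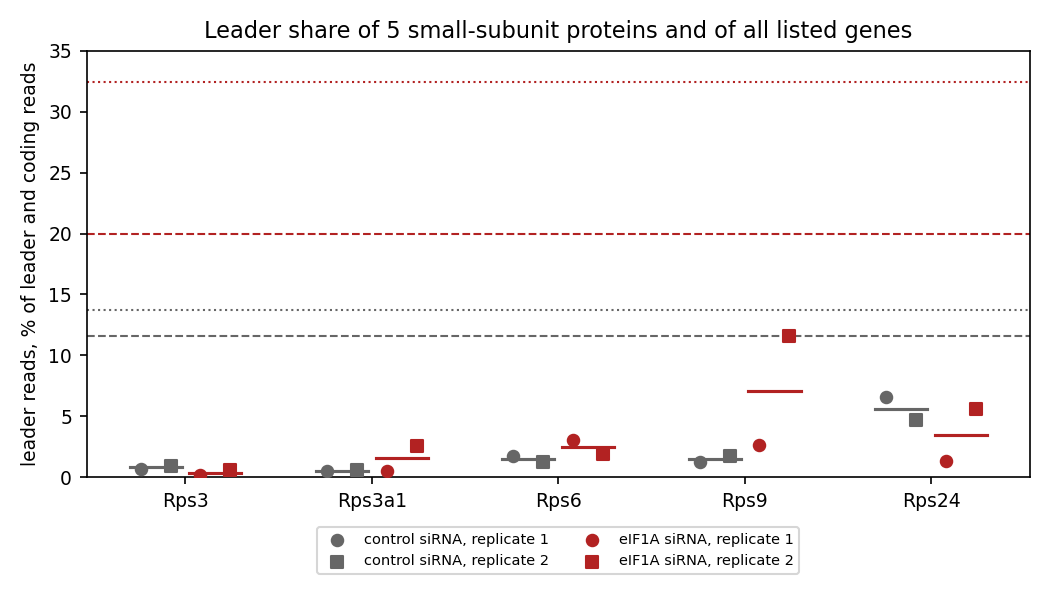
Leader reads as a percentage of leader and coding reads for each of the 5 proteins, grey for control siRNA and red for eIF1A siRNA, circles for replicate 1, squares for replicate 2 and short lines at the means of 2 libraries. Long lines give the share over all listed genes, dashed for replicate 1 and dotted for replicate 2; every point lies below the line of its own library, and the highest is Rps9 in knockdown replicate 2 at 11.6% against 32.4%.

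The 3 other listed proteins of the small subunit also had more coding footprints. Of 34 proteins on the list of the small subunit 8 were in the table, and the others were not analysed here. By limma 8 of 8 rose, where 10.6% of all genes tested did. Their median log2 change was 1.97, beside -0.16 for all genes tested. Rps27a, made as a fusion with ubiquitin, rose by 1.72 ± 0.31 (SE, limma adjusted p = 0.00109). Rps27l, a p53-inducible copy of Rps27, rose by 1.87 ± 0.31 (adjusted p = 0.0005). Gnb2l1, now named Rack1, is a scaffold on the head of the subunit and rose by 1.78 ± 0.31 (adjusted p = 0.000807). With control replicate 2 left out, 2 of 8 passed, and all 8 were at an unadjusted p under 0.05.

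The leaders of these 3 proteins all passed as higher, as did 44.0% of all leaders tested. Those of Rps27a and Rps27l averaged 4.82 and 6.61 normalized reads in the controls, and passed the filter through the knockdown libraries (73.2 and 46.4). As for Rps9, the leader and ratio p-values use the variance of the trend and not each gene's own spread. Rps27a had 5 and 7 leader reads in the controls and 67 and 49 after knockdown, a log2 change in normalized leader reads of 3.70 ± 0.54 (SE, limma adjusted p = 7.49e-10). Its ratio of leader to coding reads was the only one of 5 tested in the small subunit that passed (log2 1.98 ± 0.75, adjusted p = 0.0424). It missed the threshold in 6 of 13 alternatives, among them each control or knockdown replicate 2 left out (adjusted p = 0.781, 0.466 and 0.0677). Rps27l had 10 and 7 against 30 and 39 reads, and Gnb2l1 65 and 48 against 159 and 190, and both leaders rose (log2 2.56 and 2.31, adjusted p = 4.05e-05 and 7.58e-06). Their ratios did not pass (log2 0.68 and 0.53, adjusted p = 0.499 and 0.562), below the median gene's 1.23. The start of Gnb2l1, shown because it holds a long tract at the gene's first start, has a run of 16 bases (2.82% of windows), on the plus strand at chr11:48800347-48800376.
Gnb2l1: gaggccgCTCTTTCTTTTTCTCCacagggt

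By coding profile over the 4 libraries, the genes most like Rps3 were Rpl4, Eef1b2, Gnb2l1, Rpl6 and Gadd45gip1, ranked over the 1858 genes whose normalized coding reads averaged 50 or more. Eef1b2 (39.4 and 32.0) and Gadd45gip1 (25.1 and 18.2) were below 50 in both controls. They entered the ranking through the knockdown libraries (170 and 92.6, 109 and 57.5), so among genes this low it favours those that rose. Likeness was the Euclidean distance between log2 values centred on each gene's mean, and it was 0.107 for Rpl4, 0.107 for Eef1b2, 0.130 for Gnb2l1, 0.134 for Rpl6 and 0.141 for Gadd45gip1. The other members were farther away, with Rps3a1 at 0.315, Rps24 at 0.513, Rps9 at 0.602 and Rps6 at 0.609. Among the 1858 genes, with Rps3 itself as rank 1, they still ranked 13, 34, 52 and 54. Rpl4, a large-subunit protein, had 236 and 176 normalized coding reads in the controls and 964 and 552 after knockdown, the same order of the 4 libraries as Rps3.

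Proteins of the large subunit, the partner of these proteins in the ribosome, rose too. Of 49 on the list 14 were in the table and 13 were tested, and 13 rose, where 10.6% of all genes tested did. Their median was 1.83, with a range from 1.16 to 2.52. Rpl12 (2.52), Rpl41 (2.36), Rpl13a (1.92) and Rpl6 (2.02) had the smallest adjusted p. Without control replicate 1 or 2, 5 and 2 of the 13 passed, with 13 and 12 at an unadjusted p under 0.05. The leaders of Rpl3 and Rpl11 stayed at 1 read in all 4 libraries, as that of Rps3 did.

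Assembly factors of the small subunit rose in part. Of 56 listed, 40 were tested, 17 rose, 0 fell and 23 did not pass, with a median log2 change of 0.79. Over all 4619 genes tested 10.6% rose and 18.7% fell by limma, and edgeR called 900 higher. Rrp12, an export factor of the pre-ribosome, rose from 15.3 ± 0.361 to 127 ± 5.86 normalized coding reads (SD, n = 2). Heatr1, of the early processing complex, rose by 2.27, Nop56, a core protein of box C/D particles, by 2.15 and Pno1, which holds the maturing subunit, by 2.96 on the log2 scale. Pno1 averaged 4.38 normalized coding reads in the controls, and passed the filter through the knockdown libraries (41.2). The same held for Rrp9, Rcl1 and Bysl among the 17 (4.31, 7.26 and 8.68 in the controls). Genes this low in the controls are tested only if they are higher after knockdown. The count was 6 and 2 without control replicates 1 and 2, and 28 with edgeR.

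Partners of the small subunit in initiation rose in part. Of 24 listed, 14 were tested, 6 rose, 0 fell and 8 did not pass, with a median of 0.91. Over all genes tested 10.6% rose and 18.7% fell by limma. With TMM factors 789 of 4609 genes were called higher, and with edgeR 900 of 4619. Eif1, which binds the subunit together with eIF1A, rose by 2.17 on the log2 scale, Eif3h by 1.28, Bzw1 by 1.09 and Eif5 by 0.91, and Eif3h, Bzw1 and Eif5 each missed the threshold in 3 of 14 alternatives. The count was 1 without control replicate 1, 1 without control replicate 2 and 3 without knockdown replicate 1, and 12 with TMM factors or edgeR.

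Kinases, ubiquitin enzymes and other regulators of small-subunit proteins or their mRNAs did not move together. Of 33 listed, 17 were tested, 1 rose and 3 fell, where 10.6% and 18.7% of all genes did, with a median of -0.25. Rps6ka1, a kinase that can phosphorylate Rps6, fell by 1.99 on the log2 scale, Rptor, the subunit of mTOR complex 1 that recruits S6 kinase, fell by 1.85, and Larp4b fell by 1.56. Eif4e, the cap-binding protein, rose by 1.01, which missed the threshold in 5 of 14 alternatives. Mtor itself was at 0.42 on that scale (limma adjusted p = 0.294), and Zfp598, the ligase that marks small-subunit proteins of stalled ribosomes, was at -0.02 (adjusted p = 0.976). With control replicate 1 or 2 left out, 0 of the 17 passed by limma, with 6 and 2 at an unadjusted p under 0.05 and 2 rises and 3 falls by edgeR on all 4 libraries.

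**Figure D4:**
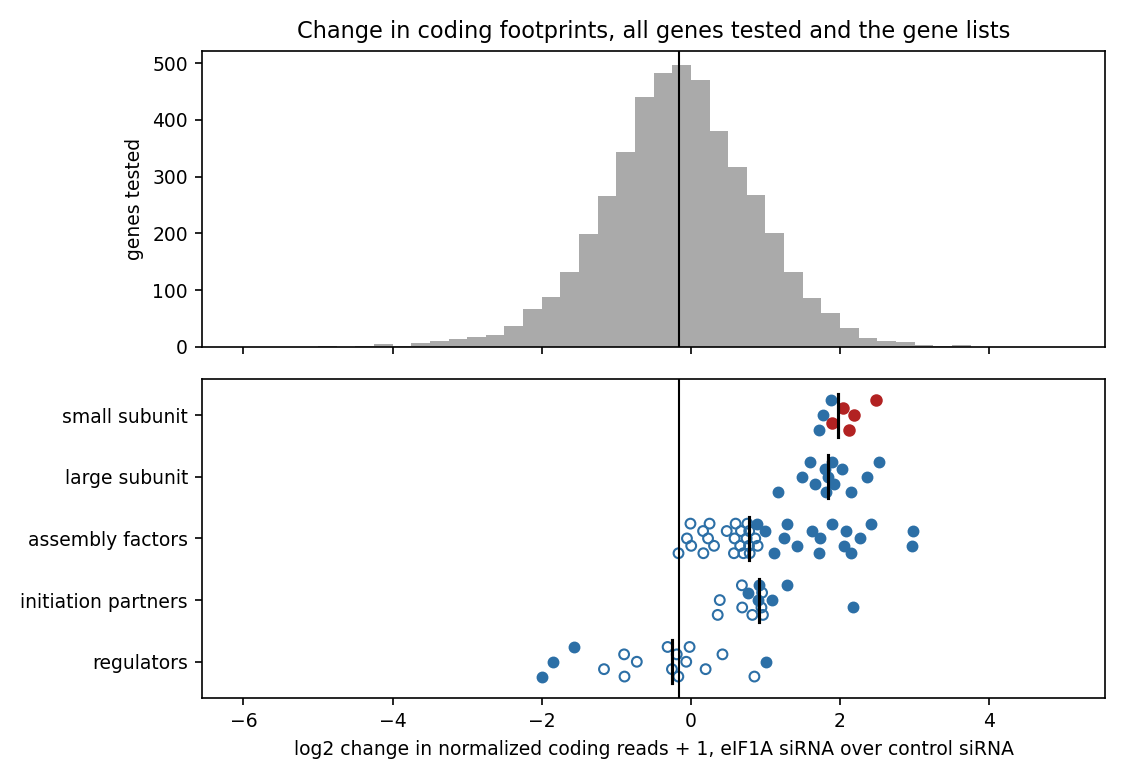
Top, number of genes tested by log2 change in normalized coding reads plus 1, eIF1A siRNA over control siRNA; bottom, the tested members of each gene list, filled where past the limma threshold and red for the 5 proteins described, with short lines at list medians and a long line at the median of all genes. The small-subunit proteins lie between 1.72 and 2.48, and the median of all genes is -0.16.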

How the data were processed

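The submitters' processing notes name HTSeq, DESeq2, TopHat2, Bowtie and cutadapt with the mm10 build; versions and order are not given in the sources used here. Per the file headers, the authors deposited a signal for each gene's leader and coding region in normalized reads. Per library, 100% of the values were whole multiples (within 0.001 reads) of the value of 1 read, which recovers whole reads. Genes with a mean of at least 10 over the libraries fitted were tested over the whole table as log2(value + 1), which understates changes of low genes. The fit was by limma 3.58.1 in R 4.3.3 (trend, Benjamini-Hochberg, 0.05). A gene low in the controls can pass the filter through the knockdown libraries. The leader to coding ratio was the difference of the log2 values. edgeR 4.0.16 and DESeq2 1.42.0 on recovered reads were alternatives, with pseudocount, filter, scaling, 1 read subtracted, replicate block and each library left out. The code was tested on simulated reads. The members, gene lists and tests were chosen with earlier results of these data known. Named genes were the members, the other listed small-subunit proteins, and up to 4 genes of each further list with the smallest adjusted p, plus the 5 nearest to Rps3; Mtor and Zfp598 were named after their values were seen. Positions and starts are from RefSeq (GRCm38.p6), where 8 of 8 small-subunit symbols matched, 1 by an older name; start sequences were found for 7 of 8, not for Rps27a. Nothing says that replicates were separate cultures, so coding p-values measure the spread between these libraries. The limma leader and ratio fits on all 4 libraries gave every gene the variance of the trend. Their p-values therefore measure the spread typical of genes at that level, and not the gene's own. Reads of ribosomal protein genes can be shared with pseudogenes, so single members are uncertain.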

Additional observations from a re-analysis of the deposited data

How the results depend on the processing

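All coding changes of the 5 proteins and of Rps27a, Rps27l and Gnb2l1 stayed upward in 14 of 14 alternatives each, with log2 changes from 1.49 to 2.30 for Rps3 and from 2.17 to 2.80 for Rps6; the small-subunit count of 8 fell to 2 without control replicate 2, and was 8 in the other alternatives. Over libraries left out in turn, that count ranged from 2 to 8, genes called for coding from 26 to 1746 (1352 with all), for leaders from 184 to 1345 (983) and for the ratio from 0 to 1164 (392). The counts of 0, without either control, had 128 and 204 genes at an unadjusted p under 0.05 by limma, and edgeR on all 4 libraries called 342. With a control left out the lone control is assumed to vary like the knockdown pair, and fewer libraries remain. A mean of at least 50 gave 788 coding, 232 leader and 110 ratio calls among fewer genes tested (1858, 372 and 286). Quantile normalization gave 73 ratio calls, 48 higher and 25 lower (391 and 1 in the report), and 452 higher and 375 lower leaders (924 and 59); it turned the leader change of Rps24 to -0.063 and the ratios of Rps27l and Gnb2l1 to -0.50 and -0.76, and made the ratio of Rps24 pass as lower at -2.44 (adjusted p = 0.0287). It equalizes the columns by construction. With libraries left out in turn, the ratio of Gnb2l1 ranged from -0.28 (without knockdown replicate 2) to 1.34 (without knockdown replicate 1); the cause was not tested. With the replicate block, 1921 coding, 1258 leader and 862 ratio calls were made, and the ratio of Rps9 passed (adjusted p = 0.0440). The shared numbers do not pair the libraries by any label, and deviations of same-numbered libraries correlated at 0.261 across genes. Without knockdown replicate 2, or at a mean of at least 50, the leaders of Rps9 and Rps24 were below the filter and gave no value. Depth limits the leaders: the median gene had 5 leader reads in each control.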

Other observations

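Rpl34, a protein of the large subunit, had the lowest listed value of 1 coding read in all 4 libraries, beside 6 and 6 leader reads in the controls and 28 and 25 in the knockdown libraries. Its leader rose by 2.60 on the log2 scale (limma adjusted p = 9.34e-05), and its coding region was below the level needed for the test. That leader averaged 4.74 normalized reads in the controls, and reached the level needed for its own fit through the knockdown libraries (34.2). Rpl39 had 21 and 6 leader reads in the controls and 251 and 222 in the knockdown libraries, more in the latter than its 149 and 65 coding reads. Rpl41, the shortest of these proteins, had 16 and 21 against 402 and 273 leader reads.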
